A study of Mus musculus with 85 samples.

Results

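Tnf, its 2 receptors (Tnfrsf1a and Tnfrsf1b), the ubiquitin editor A20 (Tnfaip3) and the A20-binding proteins Tnip1 and Tnip3 were followed through 85 RNA-seq libraries of mouse liver cells and cultured macrophages. These 6 genes were taken by symbol from the 23608 genes that the tables share, and all 6 were found. The inbred strains were C57BL/6J, BALB/cJ and A/J, with 69 libraries, and the other 16 came from CB6F1/J, a first-generation cross between the BALB/cJ and C57BL/6J strains. Per the study's methods, all mice were males of 8 to 12 weeks. For the libraries after 30 weeks of diet or 4 months after transplant, described below, this cannot be the age at sampling.

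Kupffer cells, which are the macrophages resident in liver, were sorted from mice injected with LPS (0.1 mg per kg, E. coli O114:B4, 2 h) in 2 BALB/cJ, 2 C57BL/6J and 5 CB6F1/J libraries. Controls were not injected. Fasting is described for the mice of the LPS experiment and their controls, and the labels do not say which control libraries it covers. There were 2 control libraries in each inbred strain, A/J included, and 4 in CB6F1/J, and the same libraries served all comparisons with control Kupffer cells. Bone marrow-derived macrophages (BMDMs) were grown with macrophage colony-stimulating factor and given KLA (Kdo2-lipid A, a purified TLR4 ligand, 100 ng per ml) or PBS for the 2 h that the labels state, with 2 libraries per treatment in each of the 4 strains. Kupffer cells were also taken after 30 weeks of the AMLN diet, which is rich in fat, fructose and cholesterol (4 libraries of C57BL/6J, 3 of BALB/cJ and 4 of A/J), and from busulfan-conditioned NSG recipients 4 months after stem cell transplant from BALB/cJ donors, C57BL/6J donors or hybrid CB6F1/J donors (3 libraries each). NSG mice lack lymphocytes of their own. Graft-derived cells of BALB/cJ and C57BL/6J donors were sorted by their major histocompatibility type, and the study's methods give no such markers for CB6F1/J grafts. Untreated livers also gave liver sinusoidal endothelial cells (LSECs, 4 libraries per strain), stellate cells (4 A/J, 4 BALB/cJ and 3 C57BL/6J) and hepatocytes (2 A/J, 2 BALB/cJ and 3 C57BL/6J). Liver digestion was done with flavopiridol, an inhibitor of transcription, in all groups of sorted liver cells. The labels do not tie libraries to animals. The study's text speaks of separate mice for the Kupffer cells of inbred strains after LPS (2 in each group). Its methods also give n = 2 per group for the male mice whose bones gave BMDMs. They give n = 3 per group for the Kupffer cells of transplant recipients. For other groups, where no source used here says so, a p-value measures only how far libraries spread, which may be technical.

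TNF is a secreted cytokine that macrophages release within hours of TLR4 activation. It signals through the type 1 receptor (Tnfrsf1a), which most cells carry and whose cytoplasmic part holds a death domain, and through the type 2 receptor (Tnfrsf1b), which is found mainly on immune cells. Both receptors and TLR4 feed into NF-kB. A20 is itself a target of NF-kB and edits the ubiquitin chains on which this signal depends. Tnip1 and Tnip3 belong to the A20-binding proteins, and Tnip1 also binds ubiquitin. A20 and Tnip1 limit the response, and loss of A20 in mice causes lethal inflammation that includes the liver.

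On mm10 (GRCm38), Tnf lies at chr17:35199367-35202007 on the minus strand, 1158 bases from Lta and 3062 bases from Ltb, the other lymphotoxin genes of the cluster. Tnfaip3 lies at chr10:19000910-19015410, Tnip1 at chr11:54910787-54962956 and Tnfrsf1b at chr4:145212368-145246870, all on the minus strand. Tnip3 lies at chr6:65590398-65634040 and Tnfrsf1a at chr6:125349723-125362483, both on the plus strand. The RefSeq promoters (GRCm38.p6, 250 bases before and 50 after the start) of the 4 members that changed most after LPS are shown because they differ in their NF-kB letters. Each reads 5′ to 3′ on the gene's own strand, with matches to the 10-base NF-kB consensus on either strand in capitals. They cover chr17:35201958-35202257, chr10:19015361-19015660, chr11:54962891-54963190 and chr6:65590148-65590447, in the order printed.
Tnf: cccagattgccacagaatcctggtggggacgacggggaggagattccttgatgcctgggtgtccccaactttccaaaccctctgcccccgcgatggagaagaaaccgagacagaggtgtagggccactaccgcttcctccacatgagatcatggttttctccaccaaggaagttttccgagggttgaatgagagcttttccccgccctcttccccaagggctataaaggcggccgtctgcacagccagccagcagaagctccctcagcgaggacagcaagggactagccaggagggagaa
Tnfaip3: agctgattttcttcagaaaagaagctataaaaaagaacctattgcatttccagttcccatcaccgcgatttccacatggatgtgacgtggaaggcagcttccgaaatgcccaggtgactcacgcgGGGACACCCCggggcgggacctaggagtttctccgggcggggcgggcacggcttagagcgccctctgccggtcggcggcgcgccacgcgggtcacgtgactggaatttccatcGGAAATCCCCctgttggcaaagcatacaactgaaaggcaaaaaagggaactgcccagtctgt
Tnip1: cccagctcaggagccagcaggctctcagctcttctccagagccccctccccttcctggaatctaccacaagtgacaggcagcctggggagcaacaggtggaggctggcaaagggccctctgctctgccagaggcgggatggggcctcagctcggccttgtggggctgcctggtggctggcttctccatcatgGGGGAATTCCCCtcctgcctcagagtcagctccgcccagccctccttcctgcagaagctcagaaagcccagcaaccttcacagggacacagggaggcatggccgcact
Tnip3: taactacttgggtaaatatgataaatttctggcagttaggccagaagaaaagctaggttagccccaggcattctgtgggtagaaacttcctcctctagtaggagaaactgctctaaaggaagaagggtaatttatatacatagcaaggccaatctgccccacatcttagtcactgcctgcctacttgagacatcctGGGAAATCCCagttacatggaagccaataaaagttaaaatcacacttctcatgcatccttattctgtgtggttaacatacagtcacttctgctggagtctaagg

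Tnfaip3 held 2 NF-kB matches, GGGACACCCC from 125 bases before the start and GGAAATCCCC from 12 bases before it. Tnip1 held 3 overlapping matches in 1 run of 12 bases, from 58 to 47 bases before the start, and Tnip3 held GGGAAATCCC from 54 bases before the start. Tnf had no match in this window but had a TATA box (TATAAA) beginning 29 bases before its start. The same TATA letters stood at 225 bases before the start in Tnfaip3 and, on the opposite strand, at 120 bases in Tnip3, far from the usual place of a TATA box. Tnfaip3 also had an AP-1 motif (TGANTCA) beginning 136 bases before the start. None of the 3 motifs was found at the second Tnfaip3 start (chr10:19011914-19012213) or in the windows of Tnfrsf1a and Tnfrsf1b. Of 32851 RefSeq promoters of this length, 8.46% held the NF-kB consensus, 13.6% the TATA letters and 7.81% the AP-1 motif. A match is a description of these letters and not evidence of a bound site, and enhancers outside the window were not read.

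Parental libraries held 5.26 to 42.8 M counts (n = 69) and CB6F1/J libraries 55.4 to 158 M (n = 16). Levels are given in TPM (transcripts per 1 M, a unit corrected for gene length), and differences are log2 fold changes of edgeR with their SE and Benjamini-Hochberg adjusted p over all genes tested. A gene was called at an adjusted p under 0.05 with an absolute log2 change above 1. Control Kupffer cells of the 4 strains held 16930 to 20910 TPM over 6 Kupffer markers, and BMDMs held 171 to 1243 TPM over the same markers. Stellate libraries also carried macrophage RNA, with 240 to 7851 TPM over the Kupffer markers. They held 1253 to 3556 TPM over 5 LSEC markers too, against 6408 to 8646 TPM in LSECs. Their levels of the members are read beside both.

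**Figure D1:**
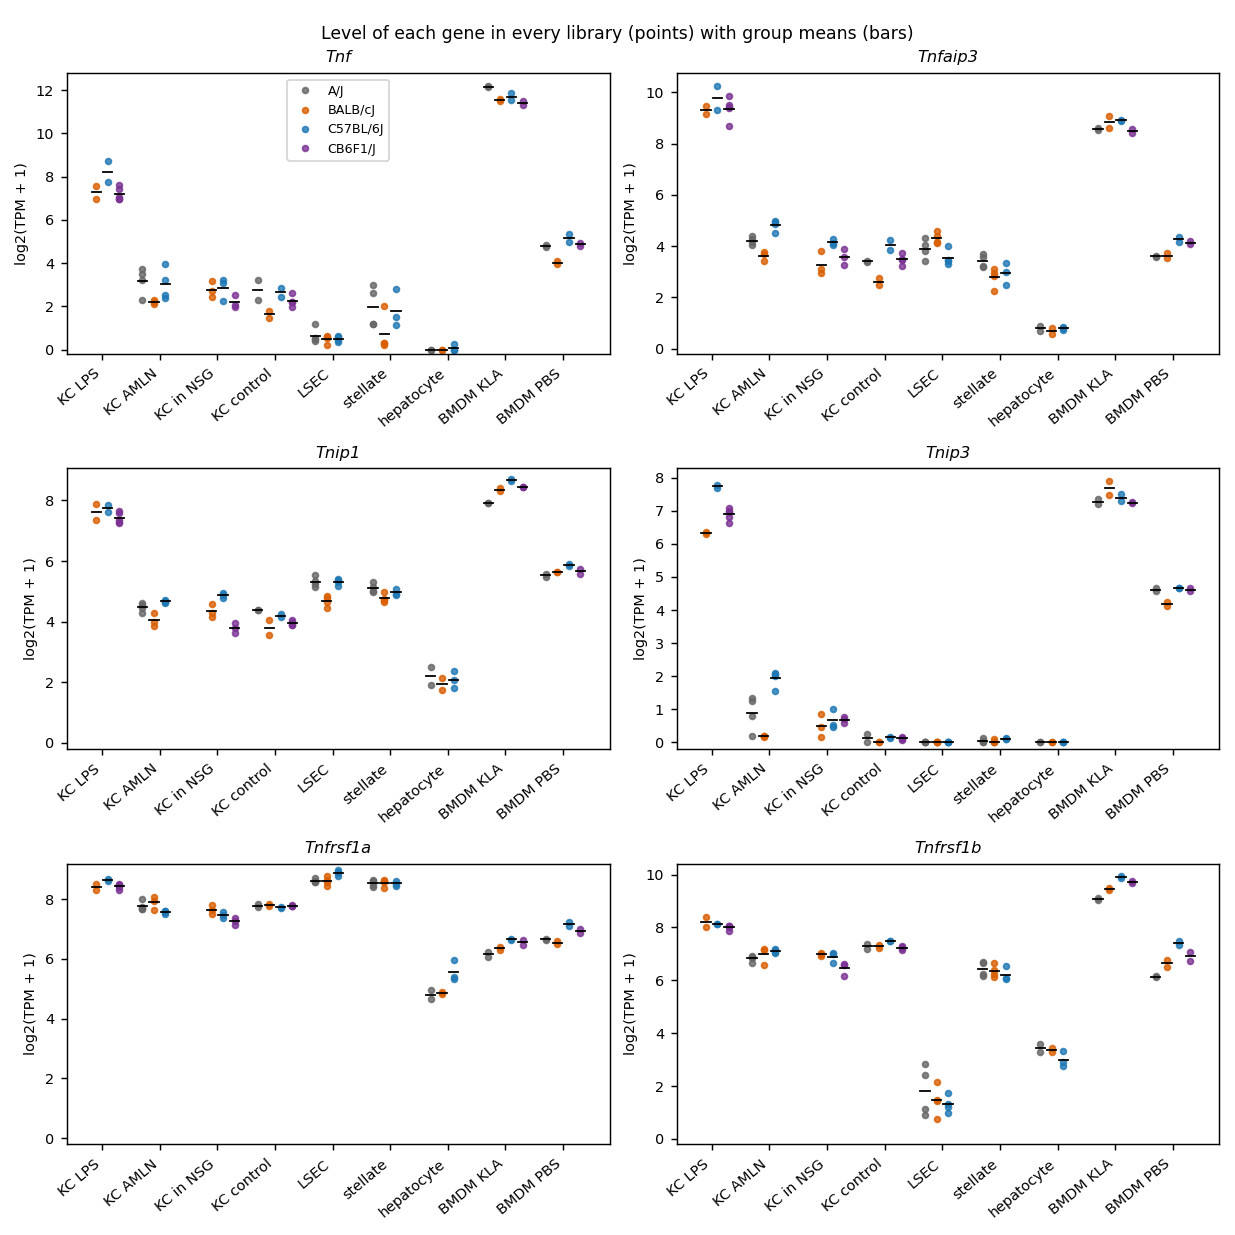
Levels of the 6 genes in every library (points, y axis log2 of TPM + 1) with group means (bars), by cell type and treatment on the x axis (KC, Kupffer cells) and strain in colour. Tnf reaches 123 to 421 TPM in Kupffer cells after LPS and 2547 to 4617 TPM in BMDMs with KLA, Tnip3 is at most at 3.29 TPM outside LPS-treated Kupffer cells and BMDMs, and Tnfrsf1b is at 0.697 to 6.07 TPM in LSECs.

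In Kupffer cells, LPS raised all 6 members in each strain tested. The ligand and the A20 group changed by far more than the receptors, which were already high in control cells. Tnf reached 124 and 188 TPM in BALB/cJ Kupffer cells after LPS, against 2.44 and 1.77 TPM in BALB/cJ controls. C57BL/6J Kupffer cells reached 211 and 421 TPM after LPS, against 4.48 and 6.18 TPM in controls. The CB6F1/J libraries held 123, 124, 195, 172 and 133 TPM after LPS, against 5.19, 3.61, 3.53 and 2.87 TPM in controls. No LPS library overlapped a control library, and the C57BL/6J library with 421 TPM stood well above every other LPS library. The log2 change of Tnf was 6.73 in BALB/cJ (SE 0.52, edgeR adjusted p = 4e-05), 6.58 in C57BL/6J (SE 0.50, adjusted p = 3.02e-05) and 6.19 in CB6F1/J (SE 0.21, adjusted p = 3.15e-11), which is 106-, 96.0- and 72.8-fold. These sizes depend on the scaling and on single libraries. With library totals the log2 change was 6.19, 5.88 and 5.34 in BALB/cJ, C57BL/6J and CB6F1/J, and without single libraries it ranged from 6.36 to 7.00, from 5.90 to 7.00 and from 6.08 to 6.35.

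Of the 6 members, 6 were called higher in BALB/cJ, 6 in C57BL/6J and 6 in CB6F1/J Kupffer cells after LPS. Over all genes tested, 17.4% were called higher in BALB/cJ, 20.9% in C57BL/6J and 21.7% in CB6F1/J. In CB6F1/J, an exact permutation test of log2 TPM gave p = 0.0159 (two-sided) for each of the 6 members, the smallest that 5 libraries against 4 allow (adjusted p = 0.111 over 66 such tests).

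The receptors rose least. Tnfrsf1a stood at 364 and 315 TPM in BALB/cJ after LPS, against 229 and 218 TPM in BALB/cJ controls. C57BL/6J cells held 407 and 390 TPM after LPS, against 207 and 214 TPM in controls. The LPS and control libraries were apart in both strains. Tnfrsf1a rose by a log2 change of 1.14 in BALB/cJ (SE 0.13, edgeR adjusted p = 8.49e-05) and of 1.59 in C57BL/6J (SE 0.14, adjusted p = 9.35e-06). Tnfrsf1b stood at 336 and 261 TPM in BALB/cJ after LPS, against 163 and 147 TPM in controls. For C57BL/6J the level was 278 and 280 TPM after LPS, against 177 and 177 TPM in controls. These groups did not overlap either. In CB6F1/J Tnfrsf1a was at 317 to 362 TPM after LPS, against 216 to 225 TPM in controls, and Tnfrsf1b at 235 to 267 TPM, against 140.0 to 157 TPM. The log2 changes of Tnfrsf1b were 1.48 in BALB/cJ (SE 0.15) and 1.33 in C57BL/6J (SE 0.15). The size of the receptor changes depends on the scaling, since the median of all genes moved by 0.0465 in BALB/cJ, 0.0812 in C57BL/6J and 0.119 in CB6F1/J under TMM but by -0.487, -0.592 and -0.726 when libraries were scaled to their totals. With library totals the receptors remained higher but no longer passed the fold limit in any of the 3 strains (Tnfrsf1a 0.60, 0.92 and 0.69, Tnfrsf1b 0.95, 0.66 and 0.82 in BALB/cJ, C57BL/6J and CB6F1/J).

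Tnfaip3 was the most abundant of the A20 group after LPS. It stood at 567 and 702 TPM in BALB/cJ after LPS, against 4.57 and 5.70 TPM in controls. C57BL/6J cells held 634 and 1230 TPM after LPS, against 13.3 and 17.7 TPM in controls. CB6F1/J cells held 686, 410.1, 723, 927 and 674 TPM after LPS, against 12.3, 10.4, 10.1 and 8.32 TPM in controls. The C57BL/6J library that was highest for Tnf was also highest for Tnfaip3, and all LPS libraries lay above all controls. Its log2 change was 7.49 in BALB/cJ (SE 0.45, edgeR adjusted p = 7.75e-06), 6.60 in C57BL/6J (SE 0.43, adjusted p = 9.89e-06) and 6.94 in CB6F1/J (SE 0.23, adjusted p = 2.77e-11).

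Tnip1, which binds A20 and ubiquitin chains, stood at 237 and 164 TPM in BALB/cJ after LPS, against 10.8 and 15.5 TPM in controls. For C57BL/6J the level was 229 and 197 TPM after LPS, against 16.9 and 17.95 TPM in controls. The CB6F1/J libraries held 152 to 199 TPM after LPS, against 13.8 to 15.4 TPM in controls. The rise of Tnip1 was 19.4- to 22.2-fold in the 3 strains, with log2 changes of 4.47 (SE 0.23), 4.28 (SE 0.23) and 4.45 in BALB/cJ, C57BL/6J and CB6F1/J. A pseudogene, Gm12230, lies within Tnip1 on the opposite strand, and reads of the pair cannot be told apart unless the counting used strand, which the sources used here do not give.

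Tnip3 was abundant after LPS and almost absent without it. It stood at 77.6 and 80.2 TPM in BALB/cJ Kupffer cells after LPS, against 0 TPM in both BALB/cJ controls. C57BL/6J cells held 207 and 218 TPM after LPS, against 0.107 and 0.123 TPM in controls. In CB6F1/J it ranged from 97.3 to 136 TPM after LPS (median 124, n = 5), against 0.0625 to 0.120 TPM in the 4 controls. With a floor of 3 counts over the BALB/cJ control group, Tnip3 was at least 1721-fold higher after LPS (4845 counts against 0). In C57BL/6J the ratio of reads was 1850 (95% exact interval 849.5 to 5042, counting error only, 8532 counts against 6).

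Markers of neutrophils and monocytes moved with the LPS groups. Over 6 markers the summed level was 177 to 192 TPM in BALB/cJ after LPS, against 88.9 to 94.4 TPM in controls. In C57BL/6J it was 281 to 330 TPM after LPS, against 114 to 125 TPM in controls, and in CB6F1/J it was 211 to 312 TPM after LPS, against 78.2 to 88.1 TPM in controls. Of the 6 markers, 3 were called higher in BALB/cJ, 4 in C57BL/6J and 3 in CB6F1/J, Csf3r and S100a8 among them, and Retnlg was listed at 0 in BALB/cJ and C57BL/6J controls. The summed Kupffer markers were 10550 to 14340 TPM after LPS in the 3 strains, against 17780 to 20910 TPM in controls. The part of these cells in the rise of the members was not tested. In bulk libraries, fewer cells of a type and less RNA per cell cannot be told apart.

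In BMDMs, KLA raised Tnf, Tnfrsf1b, Tnfaip3, Tnip1 and Tnip3 in all 4 strains. Tnfrsf1a did not pass the limits in any of them. So 5 of 6 members were called higher in each strain, against 8.1% of all genes tested in A/J, 9.28% in BALB/cJ, 10.6% in C57BL/6J and 8.7% in CB6F1/J. Tnf reached 4518 and 4617 TPM in A/J BMDMs given KLA, against 27.3 and 26.1 TPM in PBS. It reached 2881 and 3104 TPM in BALB/cJ given KLA, against 15.8 and 14.4 TPM in PBS. C57BL/6J BMDMs reached 2989 and 3705 TPM with KLA, against 30.6 and 39.2 TPM in PBS. Every KLA library lay far above every PBS library, and CB6F1/J (2897 and 2547 TPM with KLA, against 29.8 and 26.4 TPM in PBS) fell within the same ranges or just below them. The log2 change of Tnf was 7.75 in A/J, 7.94 in BALB/cJ, 6.87 in C57BL/6J and 6.93 in CB6F1/J, or 216-, 245-, 117- and 122-fold.

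The 2 receptors parted in BMDMs. Tnfrsf1b stood at 711 and 678 TPM in BALB/cJ given KLA, against 108 and 90.9 TPM in PBS. C57BL/6J BMDMs held 991 and 941 TPM with KLA, against 178 and 162 TPM in PBS. A/J BMDMs held 530 and 548 TPM with KLA, against 71.2 and 68.3 TPM in PBS. The groups lay far apart, and the log2 change of Tnfrsf1b was 3.29 in A/J, 3.11 in BALB/cJ, 2.80 in C57BL/6J and 3.13 in CB6F1/J. Tnfrsf1a stood at 83.5 and 77.9 TPM in BALB/cJ given KLA, against 89.3 and 94.9 TPM in PBS, with a log2 change of 0.12. In C57BL/6J Tnfrsf1a stood at 100.1 and 98.6 TPM with KLA, against 150 and 137 TPM in PBS, with a log2 change of -0.23 (edgeR adjusted p = 0.0152, below the fold limit). As a share of library totals the BALB/cJ change of Tnfrsf1a turned to -0.21, so no direction is given for it. The ratio of Tnfrsf1b to Tnfrsf1a in TPM was 7.48 to 9.90 in the 8 KLA libraries (median 8.61), against 0.69 to 1.21 in the 8 PBS libraries (median 1.01).

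The A20 group rose in BMDMs from levels that were not low. Tnfaip3 stood at 537 and 393 TPM in BALB/cJ given KLA, against 12.2 and 10.6 TPM in PBS. Tnip1 stood at 336 and 314 TPM in BALB/cJ given KLA, against 48.7 and 48.7 TPM in PBS. Tnip3 stood at 235 and 175 TPM in BALB/cJ given KLA, against 18.1 and 16.4 TPM in PBS. All 3 genes were well above PBS in both libraries. In C57BL/6J given KLA, Tnfaip3 stood at 473 and 486 TPM, against 17.01 and 19.5 TPM in PBS. Tnip1 stood at 416 and 397 TPM in C57BL/6J given KLA, against 56.1 and 59.3 TPM in PBS. Tnip3 stood at 180.1 and 156 TPM in C57BL/6J given KLA, against 24.5 and 24.2 TPM in PBS. PBS and KLA libraries did not overlap for any of these genes in any strain. With the strains in the order A/J, BALB/cJ, C57BL/6J, CB6F1/J, the log2 change was 5.43, 5.66, 5.01 and 4.78 for Tnfaip3, 2.75, 3.05, 3.11 and 3.13 for Tnip1, and 3.04, 3.89, 3.08 and 3.00 for Tnip3.

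**Figure D2:**
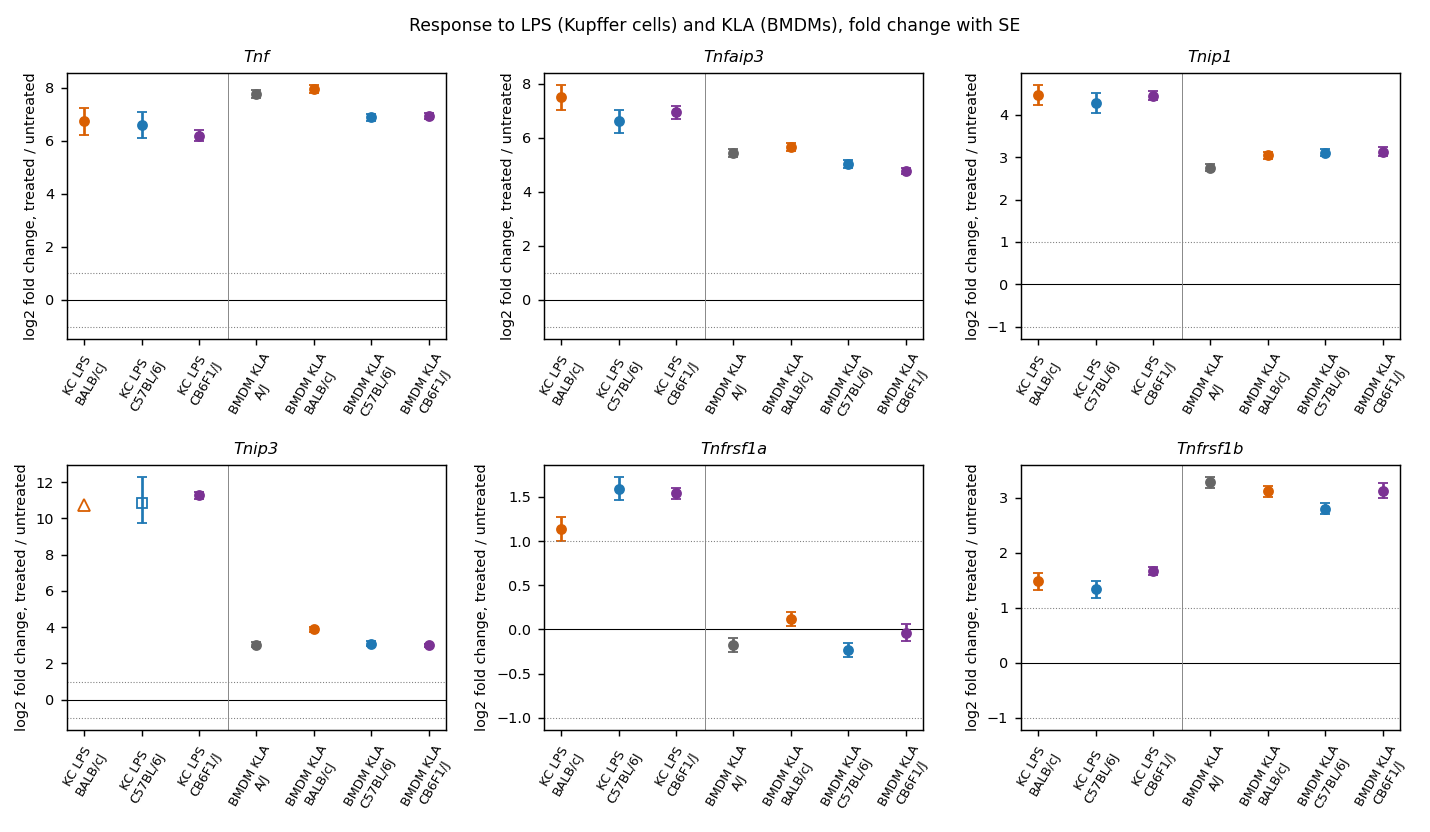
Log2 fold change of each gene (y axis, edgeR, error bars are SE, dotted lines mark the fold limit of 1) in Kupffer cells (KC) after LPS against control and in BMDMs after KLA against PBS, by strain on the x axis. The open triangle of Tnip3 is a lower bound and the open square a ratio of reads with its 95% interval, and Tnfrsf1b lies at 1.33 to 1.66 in Kupffer cells and at 2.80 to 3.29 in BMDMs.

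Whether Kupffer cells in vivo and BMDMs in culture changed by different amounts was tested as the difference of the 2 responses in 1 fit. The agents, the doses, the setting and the isolation differ between them, so cell type, stimulus and isolation cannot be told apart. Of the 6 members, 3 had a larger change in BALB/cJ Kupffer cells (Tnfaip3, Tnip1 and Tnip3) and 1 a larger change in BALB/cJ BMDMs (Tnfrsf1b), where 8.35% of all genes were called larger and 13.3% smaller. In C57BL/6J, 4 members had a larger change in Kupffer cells (the same 3 and Tnfrsf1a) and Tnfrsf1b again had a larger change in BMDMs, where 11.8% of all genes were called larger and 14% smaller. The difference (Kupffer cells minus BMDMs) for Tnfaip3 was 1.76 in BALB/cJ (SE 0.44, edgeR adjusted p = 0.00816) and 1.56 in C57BL/6J (SE 0.43, adjusted p = 0.0118). For Tnfrsf1b it was -1.70 in BALB/cJ and -1.496 in C57BL/6J, and for Tnip1 it was 1.36 and 1.14. For Tnfrsf1a it was 0.95 in BALB/cJ, under the fold limit (1.04 with DESeq2), and 1.80 in C57BL/6J. The C57BL/6J value of Tnfaip3 was 0.95, under the fold limit, without replicate 2 of the LPS-treated Kupffer cells. The C57BL/6J value of Tnip1 was 0.81 with library totals and no longer passed.

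Tnf itself did not pass this test by edgeR. The difference was -1.28 in BALB/cJ (SE 0.56, edgeR adjusted p = 0.0908) and -0.32 in C57BL/6J (adjusted p = 0.634). The BALB/cJ value lay close to the threshold and passed with DESeq2 (-1.21, adjusted p = 0.0367), as it did in 4 edgeR settings and without replicate 2 of the BALB/cJ LPS libraries (-1.63). Tnf in TPM was 123 to 421 in the 9 Kupffer cell libraries after LPS and 2547 to 4617 in the 8 BMDM libraries after KLA. Unstimulated BMDMs already held more Tnf. In the 3 inbred strains, Tnf was at 1.77 to 8.15 TPM in control Kupffer cells and at 14.4 to 39.2 TPM in BMDMs in PBS, a log2 difference of -2.44 (SE 0.44, edgeR adjusted p = 6.74e-06). Of the 6 members, 1 was called higher in control Kupffer cells than in PBS BMDMs (Tnfrsf1a, 1.13, or 0.99 with library totals) and 3 lower (Tnf, Tnip1 at -1.49 and Tnip3 at -8.16, a fitted value that depends on the prior count), against 13.2% of all genes higher and 17.5% lower. Tnfaip3 did not pass this comparison (-0.34, SE 0.25).

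Levels of different genes can be set side by side in TPM, and the balance of ligand and brake lay apart in the 2 systems. The ratio of Tnf to Tnfaip3 was 0.18 to 0.342 in Kupffer cells after LPS (median 0.268, n = 9), against 0.311 to 0.828 in control Kupffer cells (median 0.349, n = 10), and these ranges overlapped. In BMDMs it was 5.36 to 12.6 with KLA (median 7.76, n = 8), against 1.30 to 2.47 in PBS (median 1.84, n = 8). No stimulated Kupffer cell library overlapped a stimulated BMDM library. Kupffer cells went through digestion with flavopiridol and sorting, while BMDMs were scraped from culture. Cell type, stimulus and isolation cannot be told apart here.

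Strain differences were then compared within each state. In control Kupffer cells, 4 members could be tested, since Tnf and Tnip3 stayed under the TPM filter, and 1 of them passed between BALB/cJ and C57BL/6J. Tnfaip3 was at 4.57 and 5.70 TPM in BALB/cJ, against 13.3 and 17.7 TPM in C57BL/6J, with A/J between them at 9.85 and 9.34 TPM. BALB/cJ lay below both other strains without overlap. The log2 difference (BALB/cJ minus C57BL/6J) was -1.56 (SE 0.19, edgeR adjusted p = 0.000111), against 5.7% of all genes called in either direction. A/J differed by less, by 0.86 from BALB/cJ (adjusted p = 0.0104) and by -0.70 from C57BL/6J (adjusted p = 0.0217), both under the fold limit, though the first passed without replicate 2 of the BALB/cJ controls (1.01, adjusted p = 0.0274). So 0 of 4 were called there by edgeR or DESeq2 (2 and 1 at an unadjusted p under 0.05), against 3.38% of all genes between A/J and BALB/cJ and 4.61% between A/J and C57BL/6J.

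After LPS, Tnip3 was the 1 member of 6 that was called between the strains, against 6.33% of all genes. Its 77.6 and 80.2 TPM in BALB/cJ lay below the 207 and 218 TPM in C57BL/6J (log2 difference -1.54, SE 0.14, edgeR adjusted p = 0.00036). The 5 CB6F1/J libraries fell between the strains, at 97.3 to 136 TPM, in a separate table. Tnf was not called by edgeR (-1.15, SE 0.39, adjusted p = 0.0967) but was by DESeq2 (-1.14, adjusted p = 0.0168), and without single libraries its value ranged from -1.56 to -0.45. Tnfaip3 was not called (-0.68, SE 0.21), but its value was as unsteady, from -1.08 without replicate 1 of the C57BL/6J LPS libraries, where it was called, to -0.00691 without replicate 2 of the same group. The response to LPS itself differed between BALB/cJ and C57BL/6J in 0 of 6 members by edgeR or DESeq2 (2 at an unadjusted p under 0.05), where 0.645% of all genes were called.

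In PBS BMDMs, Tnf was lower in BALB/cJ (15.8 and 14.4 TPM) than in C57BL/6J (30.6 and 39.2 TPM), with a log2 difference of -1.24 (SE 0.12, edgeR adjusted p = 4.01e-07). It was the 1 member of 6 that passed between these strains, against 4.66% of all genes. Between A/J and C57BL/6J the 1 that passed was Tnfrsf1b, at 71.2 and 68.3 TPM in A/J, against 178 and 162 TPM in C57BL/6J (-1.36, SE 0.09, edgeR adjusted p = 3.21e-09), against 5.66% of all genes. Between A/J and BALB/cJ 0 of 6 passed by edgeR or DESeq2 (3 at an unadjusted p under 0.05), against 4.22% of all genes. With KLA, 0 of 6 members passed between any pair of strains by edgeR or DESeq2, although 4 to 6 of them had an unadjusted p under 0.05. Of all genes, 6.62% passed between A/J and BALB/cJ, 7.64% between A/J and C57BL/6J and 5.26% between BALB/cJ and C57BL/6J. The Tnf difference with KLA (BALB/cJ minus C57BL/6J) was -0.17. The KLA response of Tnf was larger in BALB/cJ than in C57BL/6J by 1.06 (SE 0.16, edgeR adjusted p = 0.000534), the 1 member called where 1.15% of all genes were. That value lies close to the fold limit and fell to 0.99 without replicate 2 of the BALB/cJ PBS libraries, to 0.94 without replicate 1 of the C57BL/6J KLA libraries and to 0.86 without replicate 2 of the C57BL/6J PBS libraries. Without 1 library, Tnf also passed for A/J minus C57BL/6J (1.04) and Tnip3 for A/J minus BALB/cJ (-1.09) and BALB/cJ minus C57BL/6J (1.02).

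The AMLN diet, a model of steatohepatitis, raised Tnfaip3 in Kupffer cells of each strain. The study's text describes a matched control diet and speaks of control-diet Kupffer cells, while the labels call these libraries control and give neither a diet nor an age. Diet, its duration and age at sampling therefore cannot be told apart. The C57BL/6 mice on the diet were, per the study's methods, of a colony kept in the laboratory. Tnfaip3 was at 19.9, 17, 15.5 and 18.6 TPM in A/J on the diet, against 9.85 and 9.34 TPM in controls. BALB/cJ libraries held 12.7, 11.8 and 9.79 TPM on the diet, against 4.57 and 5.70 TPM in controls. C57BL/6J libraries held 28.3, 22.04, 29.8 and 30.3 TPM on the diet, against 13.3 and 17.7 TPM in controls. Diet and control libraries did not overlap in any strain.

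The log2 change of Tnfaip3 on the diet was 1.02 in A/J (SE 0.22, edgeR adjusted p = 0.0128), 1.04 in BALB/cJ (SE 0.23, adjusted p = 0.0115) and 1.04 in C57BL/6J (SE 0.22, adjusted p = 0.00351). It was the 1 member called in each strain, against 2.66% of all genes called higher in A/J, 4.78% for BALB/cJ, and 6.73% for C57BL/6J. All 3 values lie just past the fold limit. In A/J the call was lost without replicate 1 of the diet libraries (0.86) or without replicate 1 (1.15) or 2 (0.90) of the controls. In BALB/cJ it was lost without replicate 1 of the diet libraries (0.91) or without replicate 1 (0.88) or 2 (1.18) of the controls. In C57BL/6J it was lost without replicate 3 (0.97) or 4 (0.98) of the diet libraries or replicate 1 of the controls (0.82). Summed neutrophil and monocyte markers were 143 to 260 TPM on the diet in A/J, against 93.8 to 102 TPM in controls, and 112 to 333 TPM on the diet in BALB/cJ, against 88.9 to 94.4 TPM in controls. In C57BL/6J they were 75.9 to 99.4 TPM on the diet, against 114 to 125 TPM in controls. Other marker sums moved further. In BALB/cJ the sum over 5 hepatocyte markers was 1109 to 1835 TPM on the diet, against 106 to 232 TPM in controls. There the 5 LSEC markers summed to 490.0 to 1788 TPM on the diet, against 157 to 158 TPM in controls, and the 6 stellate markers to 216 to 461 TPM, against 17.6 to 23.8 TPM. The 3 erythroid markers summed to 581 to 646 TPM in BALB/cJ on the diet, against 2.499 to 2.91 TPM in controls. Lymphocyte markers were higher on the diet in each strain, at 15.6 to 26.1 TPM in A/J, against 0.536 to 1.66 TPM in controls, at 14.4 to 21.3 TPM in BALB/cJ, against 0.274 to 0.806 TPM, and at 13.5 to 40.2 TPM in C57BL/6J, against 3.03 to 8.53 TPM. The 6 Kupffer markers in C57BL/6J summed to 11500 to 14100 TPM on the diet, against 18070 to 18770 TPM in controls. The part of these cells in the Tnfaip3 values was not tested.

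On the diet, as in controls, Tnfaip3 was lowest in BALB/cJ. Between BALB/cJ and C57BL/6J, 2 of 5 members tested were called lower in BALB/cJ, against 5.84% of all genes. Tnfaip3 differed by -1.55 (SE 0.19, edgeR adjusted p = 4.43e-05). Tnf was at 3.94, 3.59 and 3.30 TPM in BALB/cJ on the diet, against 8.38, 4.19, 14.8 and 4.79 TPM in C57BL/6J on the diet. All 3 BALB/cJ libraries lay below all 4 C57BL/6J libraries, and the log2 difference of Tnf was -1.44 (SE 0.46, edgeR adjusted p = 0.0262). This call was lost without replicate 2 (-1.405) or 3 (-1.38) of the BALB/cJ diet libraries or replicate 3 of the C57BL/6J diet libraries (-0.95). Tnip1 passed only without replicate 3 of the BALB/cJ diet libraries (-1.07). Tnip3 was under the filter but followed the same order, at 0.142, 0.129 and 0.155 TPM in BALB/cJ, against 3.29, 1.93, 3.05 and 3.16 TPM in C57BL/6J. No library overlapped, and the exact permutation test gave p = 0.0571 (two-sided), the smallest that 3 libraries against 4 allow (adjusted p = 0.14 over the 66 exact tests).

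Kupffer cells that formed from BALB/cJ or C57BL/6J grafts in NSG recipients held Tnfaip3 at 6.66, 13.02 and 7.57 TPM with BALB/cJ donors, against 16.3, 18.3 and 15.6 TPM with C57BL/6J donors. The groups did not overlap, but the log2 difference of -0.83 (edgeR adjusted p = 0.0219) stayed under the fold limit, and 0 of 4 members were called between donors by edgeR or DESeq2 (3 at an unadjusted p under 0.05), against 3.98% of all genes. Without replicate 2 of the BALB/cJ donor libraries, the one with 13.02 TPM, Tnfaip3 was called (-1.15, edgeR adjusted p = 0.000309). Tnf was at 4.46, 7.89 and 5.59 TPM with BALB/cJ donors, against 8.27, 7.46 and 3.68 TPM with C57BL/6J donors, and these overlapped. Set against control Kupffer cells, 0 of 4 members were called in either strain by edgeR or DESeq2 (3 at an unadjusted p under 0.05 in each), against 5.48% of all genes in BALB/cJ and 8.44% in C57BL/6J. The largest of these differences were 0.79 for Tnfaip3 in BALB/cJ (adjusted p = 0.0434) and -0.63 for Tnfrsf1b in C57BL/6J (adjusted p = 0.00034). Libraries from recipients also held 62.5 to 363 TPM over 4 lymphocyte markers with BALB/cJ or C57BL/6J donors, against 0.274 to 8.53 TPM in controls, and the part of this in the values was not tested.

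Tnf was low in all untreated liver cell types, at 1.77 to 8.15 TPM in control Kupffer cells of the inbred strains, 0.152 to 6.82 TPM in stellate cells and 0.154 to 1.26 TPM in LSECs, and was under the filter in these comparisons. Tnfrsf1b was at 145 to 177 TPM in the 6 control Kupffer cell libraries of the inbred strains and at 0.697 to 6.07 TPM in the 12 LSEC libraries. The log2 difference (Kupffer cells minus LSECs) was 6.61 (SE 0.31, edgeR adjusted p = 2.79e-21), and it was the 1 member called higher, against 18.8% of all genes. Tnfrsf1a was at 207 to 229 TPM in control Kupffer cells and 349 to 500.3 TPM in LSECs, and its difference of -0.57 stayed under the fold limit. LSECs thus held Tnfrsf1a with very little Tnfrsf1b, with a ratio of Tnfrsf1b to Tnfrsf1a of 0.00177 to 0.0155, against 0.649 to 0.855 in control Kupffer cells.

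Stellate libraries, which also held LSEC and Kupffer markers, had Tnfrsf1a at 333 to 397 TPM and Tnfrsf1b at 64.4 to 102 TPM. Tnfrsf1b was higher in control Kupffer cells by 1.23 (SE 0.28, edgeR adjusted p = 0.000145), the 1 member called higher against 16.7% of all genes. Hepatocytes held little of every member. Tnf was listed at 0 in 6 of 7 hepatocyte libraries, Tnip3 in all 7, and Tnfaip3 was at 0.506 to 0.874 TPM. Tnfrsf1a, the receptor through which TNF acts on hepatocytes, was still at 24.03 to 61.99 TPM there. Against hepatocytes, 4 members were called higher in Kupffer cells (Tnfaip3 at 2.74, Tnfrsf1a at 1.59, Tnfrsf1b at 3.18 and Tnip1 at 1.29), beside 30.7% of all genes. These sizes depend on the scaling. With library totals they were 3.60, 2.45, 4.03 and 2.14 in the same order, and the median of all genes stood at 0.913, against 0.0627 with TMM. By edgeR or DESeq2 0 members were called between strains in LSECs, stellate cells or hepatocytes, with at most 3 in a comparison at an unadjusted p under 0.05. Between BALB/cJ and C57BL/6J, Tnfaip3 passed in LSECs without replicate 4 of C57BL/6J (1.02), and Tnfrsf1a in hepatocytes without replicate 3 of C57BL/6J (-1.04) or with the replicate block (-1.01). For A/J minus BALB/cJ, A/J minus C57BL/6J and BALB/cJ minus C57BL/6J in turn, the share of all genes called was 2.67%, 4.14% and 3.86% in LSECs, 8.32%, 7.3% and 9.08% in stellate cells and 5.48%, 3.67% and 9.25% in hepatocytes. The differences with the smallest adjusted p were in LSECs, for Tnip1 (A/J minus BALB/cJ 0.70, adjusted p = 0.000799, and BALB/cJ minus C57BL/6J -0.63, adjusted p = 0.00116).

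In CB6F1/J mice both parental genomes share 1 nucleus, so variant-spanning reads show how much of the RNA comes from each allele. Such reads were found for 4 members. Tnip1 and Tnip3 had 0, so the strain difference of Tnip3 after LPS could not be divided by allele. In Kupffer cells, Tnf reads were split almost evenly between the alleles. The BALB/cJ share was 51.3%, 48.9%, 48.6%, 47.7% and 48.6% in Kupffer cells after LPS (mean 48.99% ± 1.36, SD, n = 5), against 50.2% ± 2.72 in controls (n = 4). In BMDMs the deposited columns gave 49.7% and 50.1% with KLA, against 51.3% ± 1.20 in PBS (n = 2). All of these libraries lay between 47.7% and 52.7%, and those of NSG grafts spread from 44.2% to 55.7%. The shares are raw, and over all genes each CB6F1/J library held slightly fewer BALB/cJ than C57BL/6J variant-spanning reads. In replicate 1 after LPS these were 3.27 M against 3.45 M, and the edgeR tests scale for this.

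Tnfaip3 leaned slightly to the BALB/cJ allele in Kupffer cells after LPS, with 53.1%, 54.0%, 53.0%, 53.1% and 53.3% (mean 53.3% ± 0.41, SD, n = 5, edgeR adjusted p = 9.1e-05, under the fold limit). Its share in controls was 50.2%, 52.2%, 57.5% and 52.5% (mean 53.1% ± 3.11, n = 4, adjusted p = 0.171). In BMDMs the share was 46.6% and 47.6% with KLA, against 52.2% and 56.3% in PBS, so the lean went the other way with KLA. The change of the allelic balance with KLA was -0.43 on the log2 scale (edgeR adjusted p = 0.305) and did not pass. Tnfrsf1a leaned to the C57BL/6J allele in control Kupffer cells, with a BALB/cJ share of 46.4% ± 0.64 (n = 4). The log2 allelic difference there was -0.19 (edgeR adjusted p = 0.00246, under the fold limit). After LPS the share was 48.8% ± 0.67 (n = 5), and the difference was -0.03 (edgeR adjusted p = 0.228). The shift with LPS was small (0.16 on the log2 scale, edgeR adjusted p = 0.00933) and under the fold limit. In BMDMs the share was 46.7% with KLA and 46.02% in PBS.

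**Figure D3:**
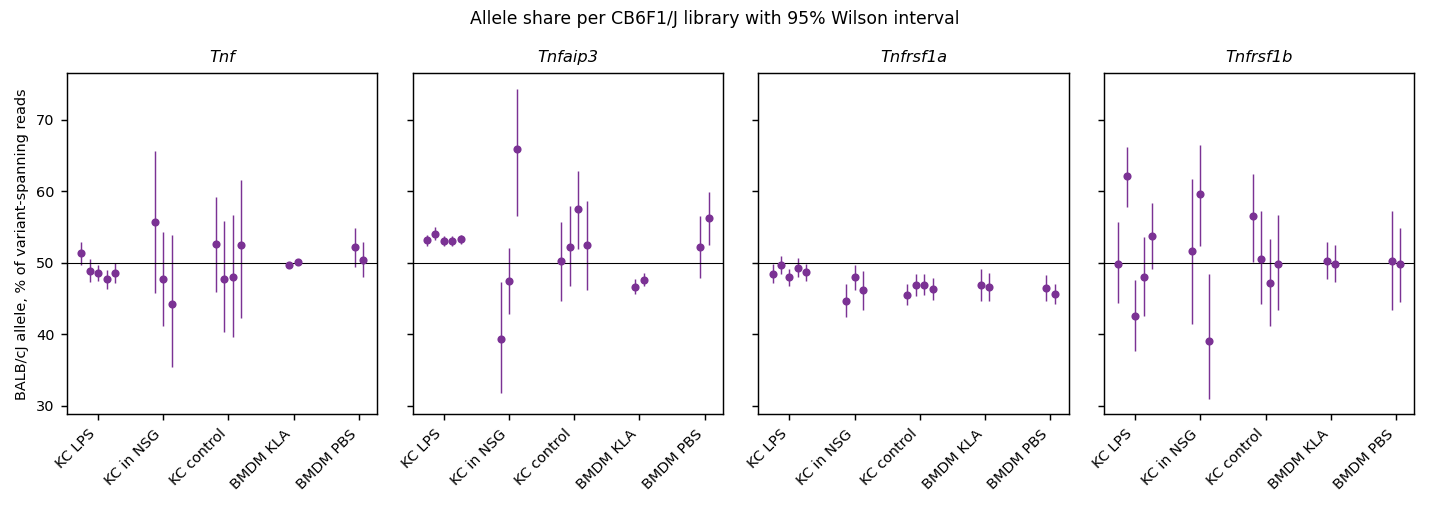
BALB/cJ share of variant-spanning reads (y axis, percent) for Tnf, Tnfaip3, Tnfrsf1a and Tnfrsf1b in each CB6F1/J library, by cell type and treatment, with 95% Wilson intervals that cover counting error only and a line at an even share. The 2 Tnf libraries with KLA lie at 49.7% and 50.1%, and Tnfaip3 lies between 53.0% and 54.0% in the 5 LPS libraries.

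Tnfrsf1b could not be read as an allelic share in BMDMs, because the deposited columns of the alleles were nearly the same there, at 50.06% with KLA and 50.02% in PBS. In Kupffer cells after LPS the BALB/cJ share of Tnfrsf1b spread from 42.5% to 62.1%. The allelic columns of BMDMs were within 2% of each other for 417 of 4157 genes with at least 50 reads in all 4 libraries. Tnf was within this limit in both KLA libraries and in 1 of the PBS libraries, so its BMDM shares are not read as allelic balance either. By edgeR 0 members passed as allelically different in any of the 5 groups, against 5.62% of all genes tested in Kupffer cells after LPS, 2.85% in NSG grafts, 4.06% in control Kupffer cells, 3.88% in BMDMs with KLA and 3.89% in PBS, and 1 or 2 members per group had an unadjusted p under 0.05.

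The strain difference and the allelic difference were then tested against each other. These fits had no library term, so both alleles of a library entered as separate samples. For Tnfaip3 in control Kupffer cells the strain difference (BALB/cJ minus C57BL/6J) was -1.57 and the allelic difference 0.19, which differed by -1.76 (SE 0.24, edgeR adjusted p = 0.000221). For Tnf in PBS BMDMs the strain difference was -1.17 and the allelic difference 0.10, which differed by -1.27 (SE 0.19, adjusted p = 0.00413). These were the 1 member called of 3 tested in control Kupffer cells and of 4 tested in PBS BMDMs, against 4.14% of all genes tested in control Kupffer cells and 3.86% in PBS BMDMs. The call of Tnf in BMDMs rests on the near-equal columns described above. Tnfaip3 in PBS BMDMs passed without replicate 1 of BALB/cJ (-1.02) or replicate 1 of CB6F1/J (-1.03). After LPS, Tnf (-1.04, adjusted p = 0.246) and Tnfaip3 (-0.83, adjusted p = 0.392) did not pass in Kupffer cells, so that 0 of 4 were called by edgeR (1 at an unadjusted p under 0.05), against 2% of all genes. Tnf passed there without replicate 1 of the C57BL/6J LPS libraries (-1.47, adjusted p = 0.039). In the NSG grafts, the BALB/cJ share of Tnfaip3 in CB6F1/J donor cells spread from 39.3% to 65.9% over 3 libraries, too wide to set beside the donor strains.

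**Figure D4:**
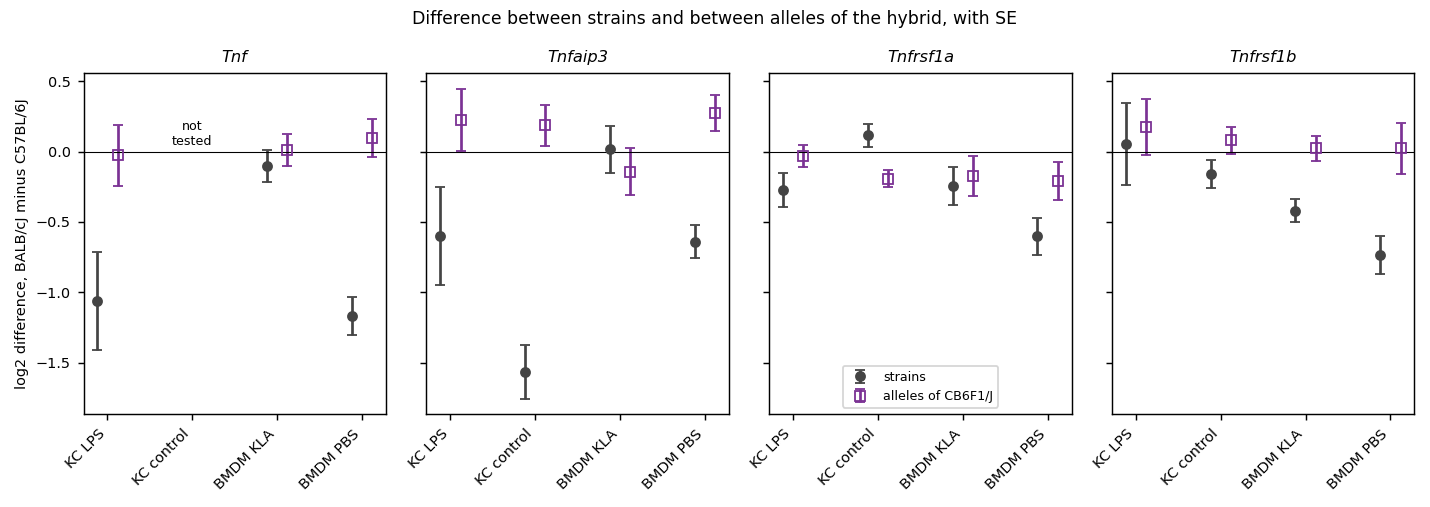
Log2 difference between the strains and between the alleles of CB6F1/J (y axis, BALB/cJ minus C57BL/6J, error bars are SE) for 4 members in stimulated and unstimulated Kupffer cells (KC) and BMDMs, with the strains left of the alleles. The strain difference of Tnfaip3 in control Kupffer cells (-1.57) and of Tnf in PBS BMDMs (-1.17) stands beside allelic differences close to 0. All values come from fits without a library term.

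Other genes of the pathway were taken from lists of the receptor complex, the kinases downstream, the decay of Tnf mRNA and the shedding of TNF. A further list joined A20 partners with other genes of ubiquitin removal or of linear ubiquitin chains. Of the 10 genes on that list, 3 rose and 1 fell in Kupffer cells after LPS in each of BALB/cJ, C57BL/6J and CB6F1/J. The list median was 0.143, 0.456 and 0.221 in the same order, against 0.0465, 0.0812 and 0.119 over all genes. The background was 17.4%, 20.9% and 21.7% of all genes called higher and 14.4%, 17.3% and 17.6% called lower, so these counts lie near it. Tnip2, the third A20-binding protein of this family, was at 107 and 111 TPM in BALB/cJ after LPS, against 17.03 and 19.8 TPM in controls (log2 change 3.10). Tax1bp1, an adaptor that brings A20 to its targets, rose by 2.15 in BALB/cJ, and the ligase Itch, which works with A20, fell by 1.08 in BALB/cJ and by 1.81 in C57BL/6J. In BMDMs given KLA, Tnip2 was at 21.6 and 22.1 TPM in BALB/cJ, against 22.2 and 22.8 TPM in PBS, and its change of 0.27 stayed under the fold limit. The difference of these responses was 2.77 in BALB/cJ and 2.69 in C57BL/6J for Tnip2, 1.69 and 1.72 for Tax1bp1 and -1.27 and -1.94 for Itch, each called by edgeR. Of the same 10 genes, 1 rose with KLA in A/J (Otulin), 1 in BALB/cJ (Rnf31), 0 in C57BL/6J and 1 in CB6F1/J (Rnf31). Of all genes there, 8.1%, 9.28%, 10.6% and 8.7% were called higher and 4.16%, 4.78%, 6.47% and 3.69% lower.

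In the receptor complex, 4 of 7 genes tested rose after LPS in BALB/cJ Kupffer cells and 5 of 7 in C57BL/6J. Of all genes, 17.4% and 20.9% were called higher there. With KLA, 4 of 8 rose in BMDMs of each strain, against 8.1% to 10.6% of all genes. Birc3, a ubiquitin ligase of the complex, rose by 3.39 in BALB/cJ Kupffer cells and 3.14 in BALB/cJ BMDMs, and Birc2 by 3.2 and 2.31. Cflar, which blocks caspase-8 in the complex, was at 193 and 237 TPM in BALB/cJ after LPS, against 43.3 and 54.1 TPM in controls (log2 change 2.68). Of the kinases and their inhibitor, 2 of 6 rose in Kupffer cells after LPS, a number close to the background given above. Nfkbia, the inhibitor that holds NF-kB in the cytoplasm, rose by 3.64 in BALB/cJ and 4.04 in C57BL/6J Kupffer cells and by 5.34 and 4.26 in BMDMs of the same strains. Tab1, an adaptor of the kinase Map3k7, fell with KLA in BMDMs (-1.86 in BALB/cJ and -1.74 in C57BL/6J).

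Among 5 genes of Tnf mRNA decay, 2 rose and 1 fell in Kupffer cells after LPS in each of the 3 strains. The same counts held in BMDMs given KLA. Of all genes, 17.4% to 21.7% were called higher and 14.4% to 17.6% lower after LPS. With KLA, 8.1% to 10.6% were called higher and 3.69% to 6.47% lower. With so few genes on the list, these counts are a description. Zc3h12a, a nuclease that degrades cytokine mRNAs, rose by 4.18 in BALB/cJ Kupffer cells and by 4.55 in BALB/cJ BMDMs. Zfp36l2, which binds AU-rich mRNAs, was at 3.34 and 11.1 TPM in BALB/cJ after LPS, against 216 and 249 TPM in controls (log2 change -4.56). Of 3 shedding genes tested, 3 rose after LPS in Kupffer cells of each strain, against 17.4% to 21.7% of all genes. Rhbdf2, which carries the TNF-cleaving protease Adam17 to the cell surface, rose by 2.46 in BALB/cJ Kupffer cells and by 2.502 in BALB/cJ BMDMs.

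Over the 25 group means of the inbred strains, the genes whose log2 TPM ran most like Tnf among 11922 genes were Kpna3 (Pearson r 0.98), Acod1 (0.98), Ccl2 (0.97), Ccl7 (0.96) and Gpr84 (0.96). For Tnfaip3 they were Ehd1 (0.96), Zc3h12a (0.96), Nfkb2 (0.96), Cxcl10 (0.96) and Nfkbia (0.95). Tnf and Tnfaip3 ran together with r of 0.89, Tnf and Tnip3 with 0.94 and Tnfaip3 and Tnip1 with 0.94, while Tnf and Tnfrsf1a had an r of -0.13. The groups share treatments and cell types, so these values are a description.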

How the data were processed

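RNA-seq values of 85 libraries were used for 6 genes, in 30 groups by strain, cell type and treatment as the labels give them. Libraries were poly(A) selected. The authors mapped reads with STAR to strain genomes and shifted them to mm10, and counted exon reads with HOMER, whose versions are not given in the sources used here. The deposited tables of sorted liver cells hold raw counts of reads per gene. For BMDMs and CB6F1/J the deposited values are expected counts, multiples of 0.5, and tests used them after rounding. The deposited TPM values, made by the authors from the same reads, were used for levels and for a filter. TPM columns sum to 0.501 to 0.596 M over the parental libraries, so levels are relative to the genes listed. For CB6F1/J the authors deposited values after mapping to each parental genome, which were averaged, and reads spanning a variant, which gave allelic shares. Of 20 tables, 6 (TPM within allelic read selections) were not used.

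Differences were tested with edgeR 4.0.16 (TMM, robust quasi-likelihood) in R 4.3.3 on genes that passed filterByExpr and had a group of the contrast with a mean TPM over 8. The alternative tool was DESeq2 1.42.0, which the study's methods name. SE is the fold change over the root of F. The difference between the Kupffer cell and BMDM responses was fitted as an interaction. Allelic tests used variant-spanning reads of autosomal genes (a mean of at least 10 per library) with the library as a block. The fits of strain against allelic difference had no library term, so both alleles of a library entered as separate samples. For Tnfaip3 in control Kupffer cells the allelic SE was 0.145 in those fits, against 0.0839 with the block. Allelic SE may be too small where columns share reads. Exact permutation tests used log2(TPM + 1), a scale that understates changes of low genes, in 66 comparisons of groups of 3 or more, with adjusted p of 0.111 or more throughout. Depth gives the precision, 5.26 to 158 M counts per library, and 2.36 to 6.69 M variant-spanning reads per allele. Simulated counts with 200 changed genes were put through a contrast of the Kupffer cell strain, BMDM, LPS, AMLN, NSG and CB6F1/J fits. An allelic test within the hybrid was simulated too. Interactions, the LSEC, stellate, hepatocyte and cell type fits and the tests of strain against allele were not simulated.

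The members and gene lists were chosen with earlier results of these data known. The text names all 6 members and, per list, up to 2 called genes with the largest change after LPS in Kupffer cells and after KLA in BMDMs, with others named where a count needed them. Promoters were read from RefSeq with fixed motif letters on both strands. Alternatives were DESeq2, another normalization, other filters, fits of fewer groups, the replicate number as a block, leaving out single libraries and, chosen after seeing the data, library totals as the scale. Same-numbered libraries of different groups did not deviate together in every pair, and the main tests did not take the numbers as pairs. Their median correlation was still 0.201 in stellate cells (other pairs -0.113) and 0.143 in LSECs (other pairs -0.0489). It was 0.0905 in the fit of control and LPS-treated Kupffer cells, -0.000766 in BMDMs of the inbred strains and -0.0312 in BMDMs of CB6F1/J. In these fits of groups of 2, other pairs give the mirror image by construction and are no separate comparison. What same-numbered libraries share was not tested.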

Additional observations from a re-analysis of the deposited data

Results flagged for a closer look

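Of 59 sets tested for a library far from the rest, each of them 1 member's TPM or allelic share in 1 group of 4 or 5 libraries, 4 had one, where chance gives about 1 in 20. Tnf was at 3.036 TPM in replicate 2 of the BALB/cJ stellate cells, against 0.152 to 0.239 TPM in the other 3, and Tnip3 was at 0.07 TPM in the same library. The summed Kupffer markers of that library (721 TPM) lay within the range of the others (240 to 998 TPM), as did its LSEC and lymphocyte markers. Its erythroid markers summed to 18.04 TPM, against 5.82 to 6.89 TPM in the others. The hepatocyte sum was lowest there, at 235.5 TPM against 263.5 to 1033 TPM. The part of such cells in these values was not tested. Replicate 2 was also highest for Tnf in A/J stellate cells, at 6.82 TPM against 1.25 to 5.10 TPM in the others. The same held in C57BL/6J stellate cells, at 5.87 TPM against 1.19 and 1.81 TPM. Tnfaip3 was at 15.22 TPM in replicate 4 of the C57BL/6J LSECs, against 8.93 to 9.98 TPM in the other 3. The BALB/cJ share of Tnfaip3 was 54.02% in replicate 2 of the CB6F1/J Kupffer cells after LPS, against 53.0% to 53.3% in the other 4, a difference of under 1 percentage point.

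Responses that differed between groups in the test of the difference itself were of 2 kinds. The KLA response of Tnf in BMDMs was larger in BALB/cJ than in C57BL/6J by 1.062. The LPS response of Kupffer cells minus the KLA response of BMDMs was 1.762 in BALB/cJ and 1.562 in C57BL/6J for Tnfaip3, -1.699 and -1.496 for Tnfrsf1b and 1.356 and 1.144 for Tnip1. For Tnip3 it was 11.65 in BALB/cJ, a fitted value that depends on the prior count because both control libraries were at 0, and 8.394 in C57BL/6J. For Tnfrsf1a it was 1.802 in C57BL/6J. The agent, the dose, the culture and the isolation differ along with the cell type, and their parts cannot be told apart.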

How the results depend on the processing

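Of 277 member values tested, 69 passed, 55 of them under every alternative run and 14 not, and 0 of the 69 changed sign. Of the 208 that did not pass, 15 passed under some alternative and 54 changed sign under some. DESeq2 lost 0 of 67 and passed 4 others (Tnf in Kupffer cells after LPS, BALB/cJ minus C57BL/6J -1.14, Tnf on the AMLN diet, A/J minus BALB/cJ 1.32, and Tnf -1.21 and Tnfrsf1a 1.04 in the BALB/cJ response of Kupffer cells minus BMDMs). RLE, no TPM filter and no filter lost 0. With library totals, chosen after seeing the data, 9 of 67 fell under the fold limit: Tnfrsf1a after LPS in BALB/cJ (0.60), C57BL/6J (0.92) and CB6F1/J (0.69), Tnfrsf1b in the same (0.95, 0.66 and 0.82), Tnip1 in the C57BL/6J response of Kupffer cells minus BMDMs (0.81), Tnfaip3 on the diet in A/J (0.99) and Tnfrsf1a in Kupffer cells minus PBS BMDMs (0.99), while Tnfrsf1a with KLA in BALB/cJ turned to -0.21. With only the groups of the contrast, Tnfaip3 on the diet lost the call in A/J (1.03, adjusted p = 0.132) and BALB/cJ (1.05, adjusted p = 0.0631, edgeR).

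Without single libraries, Tnfaip3 on the diet gave values from 0.86 to 1.15 (A/J), 0.88 to 1.18 (BALB/cJ) and 0.82 to 1.27 (C57BL/6J). Tnf on the diet (BALB/cJ minus C57BL/6J) ranged over -1.66 to -0.95, the Tnf response to KLA (BALB/cJ minus C57BL/6J) over 0.86 to 1.22, and the Tnfaip3 response (C57BL/6J Kupffer cells minus BMDMs) over 0.95 to 1.99. Values that passed only without 1 library stand beside their results. Where a group of 2 lost a library, the remaining one was assumed to vary like the others. BMDM allelic fits without a library were not run, since no residual degrees of freedom remained. In no comparison did all same-numbered libraries deviate together (lowest correlation -0.396), though most medians leaned that way, furthest in stellate cells and LSECs. The replicate block lost 0 of 57 calls and passed 3 others, Tnf at -1.09 (after LPS, BALB/cJ minus C57BL/6J) and -1.31 (BALB/cJ response of Kupffer cells minus BMDMs) and Tnfrsf1a at -1.01 (hepatocytes, BALB/cJ minus C57BL/6J).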

Other observations

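The genes beside Tnf did not share its levels. Ltb, the lymphotoxin gene 3062 bases away, was at 13.4 and 13.5 TPM in A/J BMDMs given KLA, against 2.93 and 3.00 TPM in PBS, and at 11.2 and 11.9 TPM in BALB/cJ given KLA, against 2.11 and 3.02 TPM in PBS. In C57BL/6J it was at 1.16 and 1.61 TPM with KLA, against 0.377 and 0.827 TPM in PBS, while Tnf reached 2989 and 3705 TPM there. In Kupffer cells Ltb was at 1.19 and 1.67 TPM in BALB/cJ after LPS, against 0.582 and 1.13 TPM in controls. It was highest in grafts from NSG recipients, with 14.6, 25.8 and 44.6 TPM for BALB/cJ donors, and the lymphocyte markers were raised in the same libraries. Lta stayed at or under 1.35 TPM in every BMDM library.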
